A study of Mus musculus with 8 samples.

Results

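The 39 genes described here are interferon-stimulated genes of the mouse, taken by symbol from a list of type I and type II interferon targets. No measured value enters that rule, but the list was drawn up with earlier results of these data known. All 39 were among the 25239 gene symbols measured by RNA sequencing (RNA-seq) in the corpus callosum, the commissure of white matter between the hemispheres. The test was run on 18123 symbols with a mean of at least 0.1 CPM (a gene's reads scaled so that libraries of different effective size can be compared) over the 8 libraries, and 38 of the 39 genes were among them. *Cxcl9* was below that limit. The libraries came from mice on the C57BL/6J background aged 8 to 12 weeks, labelled WT or TRPA1-KO. The study gives its WT mice as male and does not state the sex of its TRPA1-KO mice. TRPA1 is a redox-sensitive cation channel, and the TRPA1-KO line is a constitutive knockout that had been backcrossed to C57BL/6J. Mice had bilateral common carotid artery stenosis (BCAS), in which a microcoil narrows each carotid artery and lowers cerebral blood flow, or a sham operation without coils. Each label had 1 sham library, taken on day 14, and 1 BCAS library each from days 7, 10, and 14 after the operation. By the general statement in the study's methods, a sample is from a single mouse. With 1 library per label and day, the 3 BCAS libraries of a label served as its replicates, so their spread includes the change over time.

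Interferons are cytokines that cells release on sensing viral or misplaced nucleic acid, or, for interferon-γ, on activation of lymphocytes. Type I interferons bind the receptor IFNAR, and JAK1 and TYK2 then activate a complex that holds STAT2 and IRF9 and binds the interferon-stimulated response element (ISRE) of target promoters. Interferon-γ binds IFNGR and acts through the gamma-activated site (GAS). The targets include antiviral effectors, sensors of foreign RNA and DNA, GTPases that act on intracellular pathogens, and factors that amplify or end the response. In the brain, microglia, astrocytes, endothelial cells, and oligodendrocytes can all express such genes.

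A library held between 7896071 and 12952093 reads on genes, so 3 reads, the floor used here for detection, equalled 0.235 to 0.378 CPM. Reads of *Trpa1* went against the genotype labels. The libraries labelled WT had 1 *Trpa1* read in sham and 0 in each BCAS library, and those labelled TRPA1-KO had 10 in sham and 11, 3, and 7 on days 7, 10, and 14. Directions below are therefore between labels. Myelin genes were abundant in every library (*Mbp* 5129 to 7246 CPM), as was a neuronal gene that glia lack (*Snap25* 2110 to 2945 CPM). Because the tissue was sequenced in bulk, fewer cells of a type and less RNA per cell cannot be told apart in any value given here.

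Promoters are shown first because the ISRE and the GAS are the elements through which interferons act on these genes. RefSeq gave promoters for 31 of the 39 genes (250 bases before the start site and 50 from it, build GRCm38.p6), and none for *Ifi27*, *Usp18*, *Rtp4*, *Iigp1*, *Parp9*, *Parp14*, *Zbp1*, or *Mx1*. An ISRE core, searched as GAAA, any 2 bases, and GAAA on both strands, was found in 18 of the 31 (58.1%), against 3.99% of all 27025 symbols with a promoter. Before the start site alone it was found in 14 of the 31 against 3.46% of symbols. A GAS core, searched as TTCNNNGAA, which reads the same on both strands, was found in 9 of the 31 (29.0%) against 9.55% of symbols, and 6 of these 9 also had an ISRE core. In *Ifitm3*, *Ddx58*, *Ifih1*, and *Eif2ak2* the ISRE cores lay only after the start site. No match was found in these windows for *Irf7*, *Irf9*, *Oasl2*, *Lgals3bp*, or *Sp100* among others. The lines below give, 5′ to 3′ on the strand of the gene, the bases around each ISRE core before the start site in members with a limma p under 0.05 between the BCAS groups, with the core in capitals. A core on the opposite strand reads TTTC, 2 bases, and TTTC.
Ifit1 (chr19:34640770-34640828, + strand): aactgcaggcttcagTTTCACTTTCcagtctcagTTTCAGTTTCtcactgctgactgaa
Rsad2 (chr12:26456548-26456587, - strand): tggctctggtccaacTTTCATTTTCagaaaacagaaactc
Stat2 (chr10:128270261-128270300, + strand): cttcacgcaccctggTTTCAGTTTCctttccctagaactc
Cxcl10 (chr5:92349078-92349117, - strand): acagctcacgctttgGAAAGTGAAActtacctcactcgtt
Gbp7 (chr3:142530268-142530307, + strand): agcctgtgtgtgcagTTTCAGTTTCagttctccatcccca
Igtp (chr11:58199507-58199546, + strand): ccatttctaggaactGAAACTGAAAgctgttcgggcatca
Trim30a (chr7:104465205-104465244, - strand): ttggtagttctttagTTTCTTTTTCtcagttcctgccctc
*Gbp3* also had such cores but its window runs into an annotated transcript and is not printed. The next lines show tandem or repeated cores in members without such a p, which differ in spacing, with overlapping copies written as 1 run of capitals.
Isg15 (chr4:156200860-156200911, - strand): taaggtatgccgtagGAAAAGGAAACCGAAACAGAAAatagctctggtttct
Bst2 (chr8:71537572-71537617, - strand): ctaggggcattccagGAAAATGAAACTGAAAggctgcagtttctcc
Ifit3 (chr19:34583358-34583431, + strand): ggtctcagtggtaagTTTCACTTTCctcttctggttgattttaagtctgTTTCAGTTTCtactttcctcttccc
Oas1a (chr5:120907526-120907560, - strand): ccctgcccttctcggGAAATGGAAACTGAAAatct
*Irf1*, which encodes the transcription factor IRF1 and is a target of interferon-γ, had a GAS core and no ISRE core, with the GAS core in capitals here.
Irf1 (chr11:53769909-53769947, + strand): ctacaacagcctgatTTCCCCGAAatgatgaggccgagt
In *Isg15* 3 overlapping copies spanned positions -78 to -57 from the start site, and in *Oas1a* and *Bst2* 2 copies overlapped in the same way, whereas the 2 copies of *Ifit1* were separate.

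Several members are neighbours in the genome (GENCODE M21, GRCm38). *Ifit2* (chr19:34550694-34576419), *Ifit3* (chr19:34583531-34588731), and *Ifit1* (chr19:34640871-34650009) lie in a row on the plus strand. So do *Gbp7* (chr3:142530342-142550149), *Gbp3* (chr3:142560026-142573209), and *Gbp2* (chr3:142620602-142638008). *Parp14* (chr16:35832874-35871544), *Dtx3l* (chr16:35926511-35939151), and *Parp9* (chr16:35938470-35972605) adjoin, as do *Cxcl9* (chr5:92321347-92328079) and *Cxcl10* (chr5:92346638-92348889). *Oasl2* (chr5:114896936-114912234), *Irf7* (chr7:141262706-141266481), *Lgals3bp* (chr11:118392751-118402092), *Ddx58* (chr4:40203773-40239828), and *Usp18* (chr6:121245906-121270917) are the other members named most often below. Reads were summed over each gene, so no value belongs to a single exon.

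**Figure D1:**
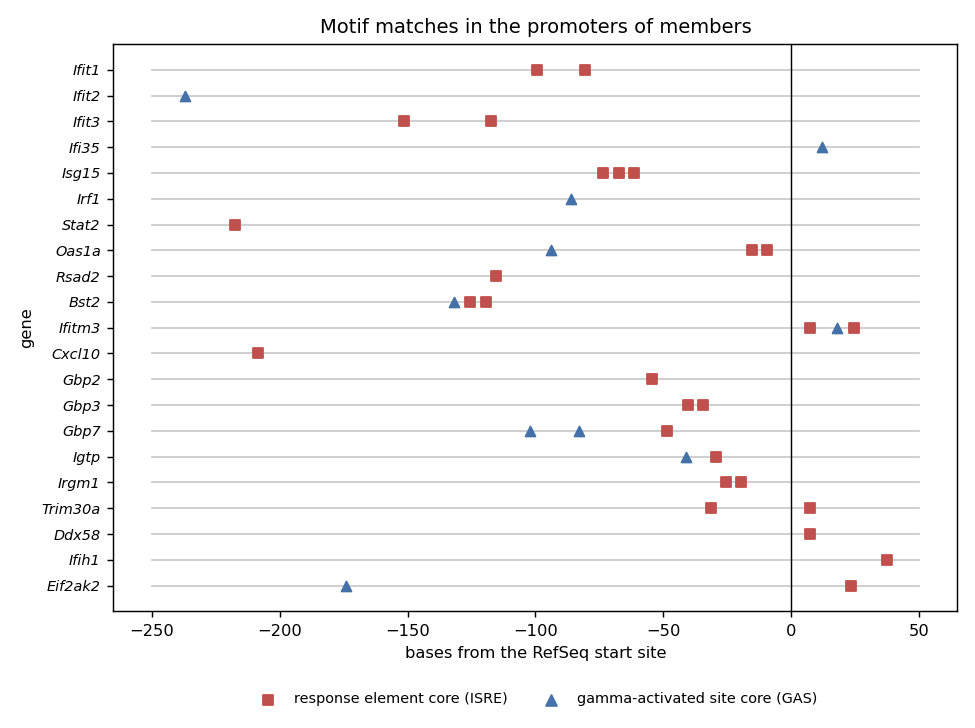
Positions of ISRE cores (red squares) and GAS cores (blue triangles) in the 21 member promoters that hold either, in bases from the RefSeq start site (vertical line). Grey lines span the 300 bases searched, and most ISRE cores lie between position -130 and the start site.

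In the libraries labelled WT, nearly every interferon-stimulated gene was highest on day 7 of BCAS, intermediate on day 10, and near sham on day 14. In the libraries labelled TRPA1-KO, the genes stayed near sham on days 7 and 10 and were slightly above it on day 14. For each gene, log2(CPM + 1) was set against the mean of the 2 sham libraries. Over the 38 genes, the median difference under WT was 1.55 on day 7, then 0.76 on day 10 and 0.07 on day 14. Under TRPA1-KO it was -0.16, -0.05, and 0.23 on the same days. All 38 genes were above the sham mean in the WT-labelled libraries of day 7 and of day 10, and 23 were above it on day 14. In the TRPA1-KO-labelled libraries 10, 17, and 33 of the 38 were above it on days 7, 10, and 14. Over all 18123 genes tested the medians lay between -0.01 and 0.00 in every library. The highest of the 8 values was in the WT-labelled library of day 7 for 37 of the 38 genes, against 21.9% of all genes tested. The exception was *Gbp2*, which was highest in the WT-labelled library of day 10. Values followed the order day 7, day 10, day 14 from high to low for 35 of 38 genes with the label WT, against 22.2% of all genes, and for 2 of 38 with the label TRPA1-KO, against 19.99%.

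**Figure D2:**
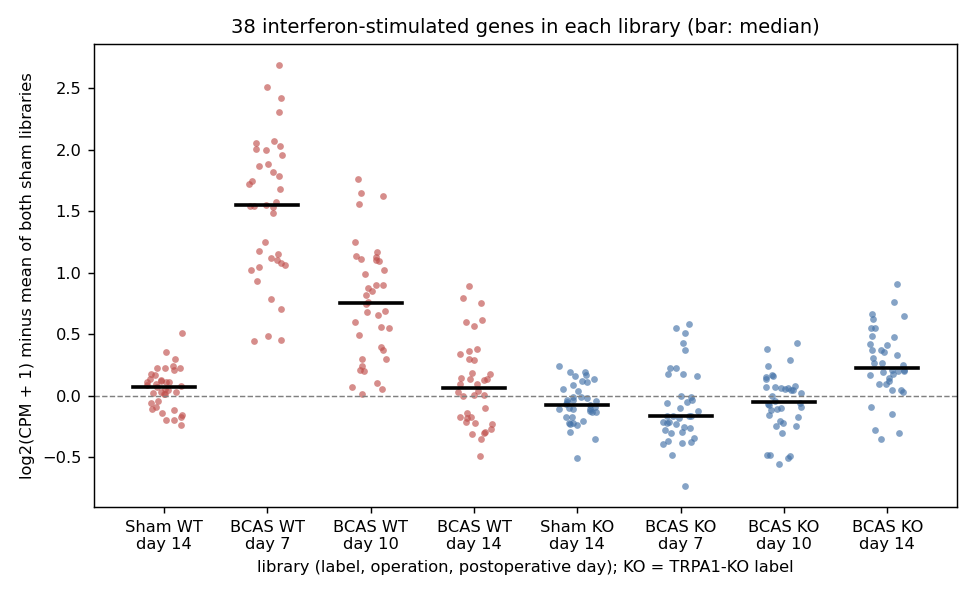
Difference of log2(CPM + 1) from the mean of both sham libraries (vertical axis) for 38 interferon-stimulated genes in each of the 8 libraries, in red for the label WT and blue for TRPA1-KO. Each point is a gene and each bar the median, which was 1.55 in BCAS WT day 7 and 0.76 in BCAS WT day 10.

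As ratios of CPM to the sham mean, which could be formed for the 36 genes with more than 3 reads in both sham libraries, the median under WT was 3.23 on day 7, then 1.86 on day 10 and 1.08 on day 14. On day 7 the ratio ran from 1.37 for *Stat2* to 10.6 for *Mx1*, and 31 of the 36 genes were at least 2-fold above sham. The ratio of *Mx1* rests on 6 and 4 reads in the sham libraries. With the label TRPA1-KO the median ratios were 0.83, 0.98, and 1.26, and 0, 0, and 2 genes were at least 2-fold above sham. Between libraries of the same day, the genes were higher under the label WT in 38 of 38 cases on day 7 (median difference 1.60 on the log2 scale) and in 37 of 38 on day 10 (0.74), *Ifih1* being the exception. On day 14 they were higher under the label WT in 13 of 38 (-0.21). Each of these days has 1 library per label, so these differences carry no test.

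**Figure D3:**
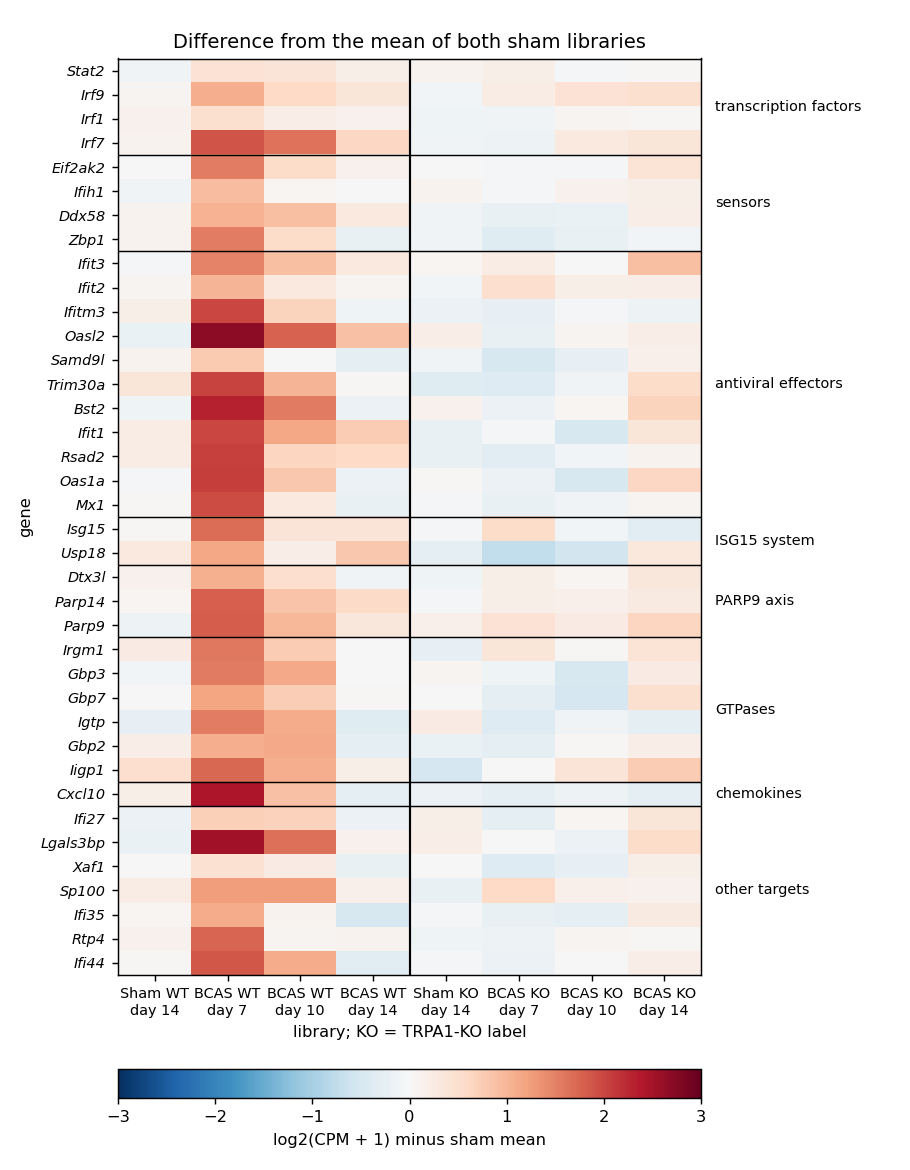
Difference of log2(CPM + 1) from the sham mean (colour, red above and blue below) for 38 genes (rows, by role) in 8 libraries (columns, WT label left of the line and TRPA1-KO right). In the columns of BCAS WT day 7 and day 10 every gene is above the sham mean, but *Samd9l*, *Ifih1*, and *Rtp4* barely so on day 10. The other BCAS columns are pale.

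The first comparison asked whether the BCAS groups of the 2 labels differ, as the study did by averaging days 7, 10, and 14. All 38 genes had higher mean values under the label WT, with a median log2 fold change of 0.76, against 0.00 over all genes tested. By limma, 16 of the 38 (42.1%) had a p under 0.05 before adjustment and higher values under the label WT, and 0 had lower values. Among all genes tested, 2.40% had such a p with higher values and 1.80% with lower values. These 16 were *Oasl2*, *Ifit1*, *Irf7*, *Ddx58*, *Rsad2*, *Usp18*, *Parp14*, *Gbp3*, *Stat2*, *Lgals3bp*, *Igtp*, *Cxcl10*, *Gbp7*, *Ifitm3*, *Zbp1*, and *Trim30a*. After Benjamini-Hochberg adjustment over all genes, 0 members passed 0.05 with limma (limma adjusted p from 0.685 to 0.983) or with edgeR, while 0.0166% of all genes did with limma and 0.0110% with edgeR. DESeq2 called 1 member, *Oasl2* (DESeq2 adjusted p = 0.000174), and 0.0958% of all genes with an adjusted p. For 9 of the 38 genes (*Oasl2*, *Ifit1*, *Irf7*, *Ddx58*, *Rsad2*, *Parp14*, *Stat2*, *Rtp4*, and *Irf1*) the lowest WT-labelled BCAS value was above the highest TRPA1-KO-labelled one, against 4.48% of all genes. For such genes the exact permutation test gave p = 0.10, the smallest that 3 against 3 libraries allow. The count of 16 rested on which libraries were used, and the share of all genes with such a p moved with it. It was 7 without the WT-labelled library of day 7 (median 0.37, with 35 of 38 genes higher), against 1.59% of all genes, and 8 without that of day 10, against 1.89%. It was 33 without the WT-labelled library of day 14, against 6.75% of all genes, and 4 members then passed adjustment (*Oasl2*, *Lgals3bp*, *Igtp*, and *Irf7*), against 0.160%. It was 10 without the TRPA1-KO-labelled library of day 7, against 1.5%, and 7 without that of day 10, against 1.09%.

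**Figure D4:**
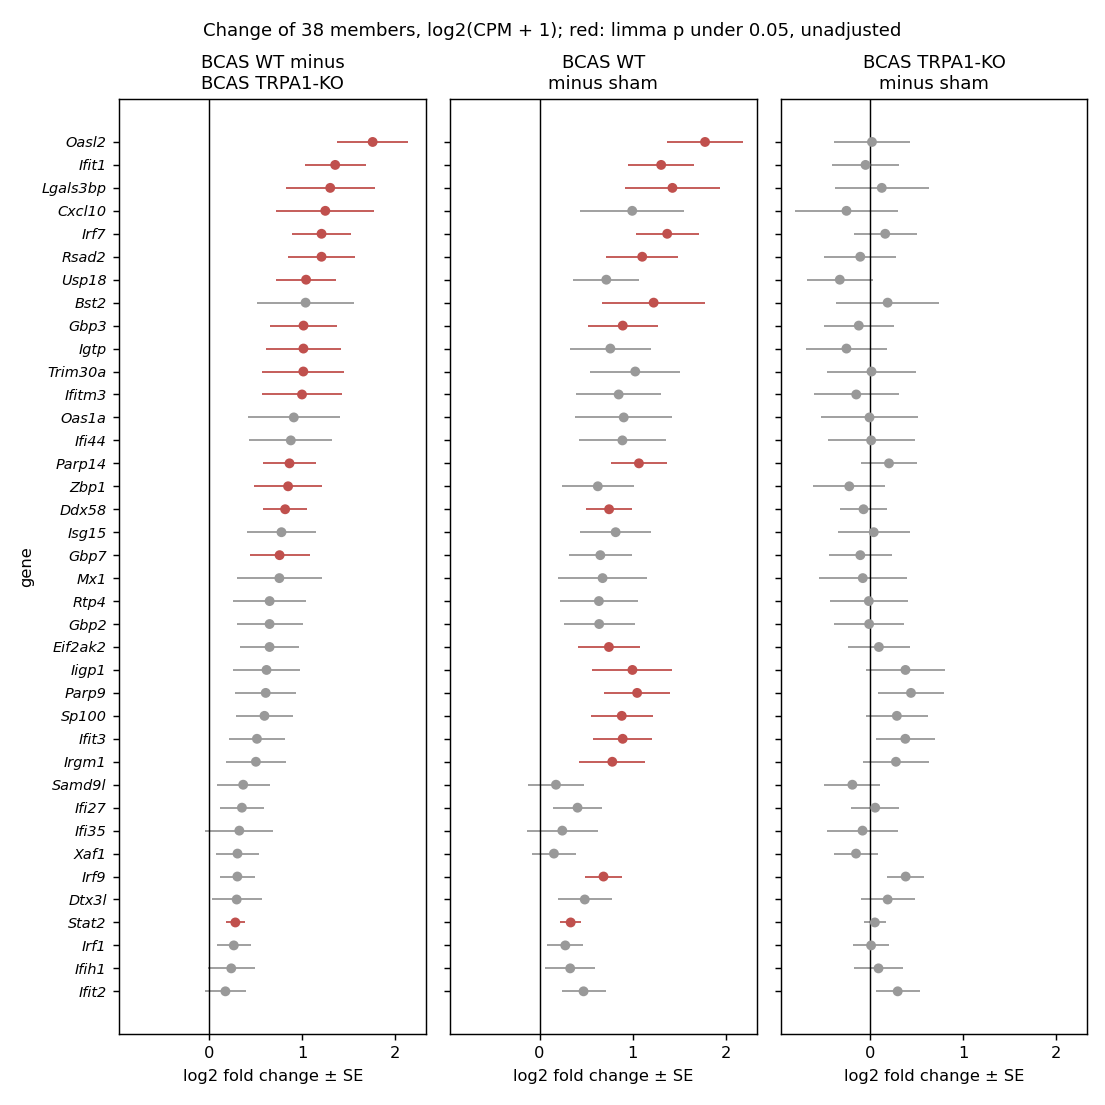
Log2 fold change of log2(CPM + 1) with its standard error (horizontal axis) for 38 genes in 3 comparisons, in red where the limma p was under 0.05 before adjustment. All points lie above 0 in the first 2 panels, and they scatter around 0 in the panel of BCAS TRPA1-KO minus sham.

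Values of single genes follow by role, in CPM, in the order sham, BCAS day 7, day 10, and day 14. Each change is the log2 fold change between the BCAS groups, WT label minus TRPA1-KO label, on log2(CPM + 1) with its standard error (SE). The p beside it is from the exact two-sided permutation test over 3 against 3 libraries, which cannot go below 0.10. The limma adjusted p was 0.685 for *Oasl2* and 0.983 for each of the other 37 genes, and the 16 genes with an unadjusted limma p under 0.05 are those listed above.

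Among the transcription factors, *Irf7* had the largest difference. IRF7 amplifies type I interferon production and is itself an interferon target. *Irf7* had 1.96, 9.07, 7.44, and 3.18 CPM under WT and 1.53, 1.45, 2.35, and 2.497 CPM under TRPA1-KO. *Irf7* differed by 1.21 ± 0.32 between the BCAS groups (SE, exact permutation p = 0.10). All 3 BCAS values under WT were above the highest TRPA1-KO value. *Stat2* encodes a subunit of the complex that binds the ISRE, and it was the member with the highest mean CPM. The values of *Stat2* were 34.1, 50.8, 48.4, and 42.2 CPM for WT and 40.3, 41.97, 35.6, and 37.98 CPM for TRPA1-KO. The difference was 0.28 ± 0.10 (SE, exact permutation p = 0.10). Its groups did not overlap either, but its values lay within a narrow range. *Irf9*, which supplies the DNA-binding part of that complex, overlapped between the BCAS groups. For *Irf9*, the WT-labelled libraries had 11.3, 23.8, 16.5, and 13.9 CPM and the TRPA1-KO-labelled ones 9.88, 12.6, 14.6, and 15.2 CPM. The change was 0.31 ± 0.19 (SE, exact permutation p = 0.3). In *Irf9* every BCAS library of either label was above both sham libraries. *Irf1* had a small difference without overlap. *Irf1* was at 5.87, 7.83, 6.301, and 5.93 CPM across the WT label and at 4.79, 4.898, 5.66, and 5.51 CPM across the TRPA1-KO label. *Irf1* differed by 0.27 ± 0.18 between the BCAS groups (SE, exact permutation p = 0.10). Every WT-labelled value of *Irf1*, sham included, was above every TRPA1-KO-labelled one. Because *Irf7* lies opposite *Phrf1* and *Irf1* opposite *Gm17334*, and *Irf9* overlaps *Rnf31* on the same strand, reads shared with these genes cannot be separated here.

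The 4 sensors of nucleic acid had a median log2 fold change of 0.74 between the BCAS groups. Of the 16 members with a limma p under 0.05 and higher values under WT (2.40% of all genes tested), 2 were sensors. *Ddx58* encodes RIG-I, which detects viral RNA with 5′ triphosphates. *Ddx58* had 5.63, 11.8, 10.6, and 6.58 CPM under WT and 4.79, 4.34, 4.38, and 6.14 CPM under TRPA1-KO. The difference was 0.82 ± 0.23 (SE, exact permutation p = 0.10). Its WT-labelled BCAS values were all above the TRPA1-KO-labelled ones, and the values of days 7 and 10 stood clear of all other libraries. *Ifih1* encodes MDA5, which detects long double-stranded RNA. The values of *Ifih1* were 5.95, 13.3, 6.81, and 6.47 CPM for WT and 7.097, 6.23, 7.26, and 7.49 CPM for TRPA1-KO. The change was 0.24 ± 0.25 (SE, exact permutation p = 0.8). Here the library labelled WT of day 7 was alone, and the other 7 were within 5.95 to 7.49 CPM. *Eif2ak2* encodes PKR, the kinase that halts translation on binding double-stranded RNA. For *Eif2ak2*, the WT-labelled libraries had 6.96, 21.97, 10.6, and 7.68 CPM and the TRPA1-KO-labelled ones 6.81, 6.57, 6.51, and 9.47 CPM. *Eif2ak2* differed by 0.65 ± 0.32 between the BCAS groups (SE, exact permutation p = 0.2). *Zbp1* encodes a sensor of Z-form nucleic acid and was low throughout. *Zbp1* was at 0.391, 2.76, 0.882, and 0.1097 CPM across the WT label and at 0.192, 0, 0.107, and 0.208 CPM across the TRPA1-KO label. The difference was 0.85 ± 0.36 (SE, exact permutation p = 0.2). Its level on day 7 with the label WT rested on 31 reads, with a 95% Clopper-Pearson interval of 1.87 to 3.91 CPM that covers counting error only. That interval lies above those of all other libraries, the nearest being the WT-labelled library of day 10 with 7 reads (0.355 to 1.82 CPM).

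The antiviral effectors, 11 genes, had a median log2 fold change of 1.0 between the BCAS groups. They held 5 of the 16 members with a limma p under 0.05 and higher values under WT (2.40% of all genes tested). *Oasl2*, of the oligoadenylate synthetase family, had the largest change of all 38 genes. *Oasl2* had 1.96, 20.8, 10.5, and 5.27 CPM under WT and 2.88, 1.89, 2.56, and 2.91 CPM under TRPA1-KO. The change was 1.76 ± 0.38 (SE, exact permutation p = 0.10). Each of the 3 WT-labelled BCAS libraries was above every other library. *Ifit1* encodes a protein that binds viral RNA lacking the host cap methylation. The values of *Ifit1* were 2.74, 11.7, 6.18, and 4.39 CPM for WT and 1.73, 2.12, 1.28, and 3.12 CPM for TRPA1-KO. *Ifit1* differed by 1.36 ± 0.33 between the BCAS groups (SE, exact permutation p = 0.10). It showed the same separation of the groups. *Rsad2* encodes viperin, an enzyme that makes a chain-terminating nucleotide. For *Rsad2*, the WT-labelled libraries had 1.799, 8.98, 2.77, and 2.63 CPM and the TRPA1-KO-labelled ones 1.05, 0.891, 1.28, and 1.56 CPM. The difference was 1.21 ± 0.36 (SE, exact permutation p = 0.10). The day 7 value stood apart and days 10 and 14 were above the other label by little. *Ifitm3* encodes a membrane protein that blocks the entry of enveloped viruses. *Ifitm3* was at 6.65, 26.2, 9.83, and 5.16 CPM across the WT label and at 4.99, 4.68, 5.55, and 5.098 CPM across the TRPA1-KO label. The change was 1.0 ± 0.43 (SE, exact permutation p = 0.2). The WT-labelled value of day 14 was within the range of the TRPA1-KO-labelled libraries. *Trim30a*, of the tripartite motif family, overlapped between the groups in the same way. *Trim30a* had 4.22, 15.7, 7.31, and 3.18 CPM under WT and 2.21, 2.12, 2.78, and 4.99 CPM under TRPA1-KO. *Trim30a* differed by 1.01 ± 0.44 between the BCAS groups (SE, exact permutation p = 0.2).

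*Bst2* encodes tetherin, which holds budding virus at the cell surface. The values of *Bst2* were 1.72, 13.8, 7.81, and 1.65 CPM for WT and 2.302, 1.67, 2.14, and 3.75 CPM for TRPA1-KO. The difference was 1.04 ± 0.52 (SE, exact permutation p = 0.4). It was well above sham on days 7 and 10 under WT, but on day 14 it was at the level of sham. *Ifit2* and *Ifit3*, relatives of *Ifit1*, had the highest mean CPM of the effectors, and *Ifit2* had the smallest change. For *Ifit3*, the WT-labelled libraries had 10.6, 32.8, 21.6, and 13.9 CPM and the TRPA1-KO-labelled ones 11.6, 13.1, 11.1, and 21.7 CPM. The change was 0.52 ± 0.30 (SE, exact permutation p = 0.3). *Ifit2* was at 12.99, 25.97, 15.4, and 13.2 CPM across the WT label and at 11.6, 17.9, 13.9, and 14.4 CPM across the TRPA1-KO label. *Ifit2* differed by 0.18 ± 0.22 between the BCAS groups (SE, exact permutation p = 0.7). For *Ifit3*, the TRPA1-KO-labelled library of day 14 was also raised above both sham libraries. *Ifit3* and *Ifit3b* are near copies, as are *Oas1a* and *Oas1g*, so the split of reads within each pair is uncertain. The remaining effectors, *Oas1a*, *Mx1*, and *Samd9l*, had log2 fold changes of 0.91, 0.76, and 0.37, none with a limma p under 0.05. *Mx1*, which is known to be defective in C57BL/6 mice, was at 4.54 CPM on day 7 under WT and at most 0.76 CPM elsewhere.

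*Isg15* encodes the ubiquitin-like protein that is joined to other proteins in the interferon response, and *Usp18* the protease that removes it and dampens receptor signalling. *Isg15* had 1.25, 6.05, 1.89, and 1.87 CPM under WT and 1.15, 2.23, 1.07, and 0.728 CPM under TRPA1-KO. The difference was 0.78 ± 0.37 (SE, exact permutation p = 0.3). The day 7 value under WT was more than 2-fold above all others. The values of *Usp18* were 1.96, 4.36, 1.76, and 3.18 CPM for WT and 0.959, 0.445, 0.641, and 1.98 CPM for TRPA1-KO. The change was 1.04 ± 0.32 (SE, exact permutation p = 0.2). With *Rtp4*, *Usp18* was 1 of 2 genes whose WT-labelled value of day 14 exceeded that of day 10. Its sham libraries already differed, 1.96 against 0.96 CPM, in the direction of the BCAS groups.

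*Parp9* and *Dtx3l* encode partners that form a complex acting on histones and ADP-ribose, share a promoter, and overlap on opposite strands. *Parp14* encodes a related ADP-ribosyltransferase. For *Parp14*, the WT-labelled libraries had 3.99, 15.6, 7.69, and 6.14 CPM and the TRPA1-KO-labelled ones 3.64, 4.45, 4.38, and 4.79 CPM. *Parp14* differed by 0.87 ± 0.28 between the BCAS groups (SE, exact permutation p = 0.10). The 3 WT-labelled BCAS values were above those of every other library, and the TRPA1-KO-labelled ones differed by little from each other. *Parp9* was at 2.19, 11.6, 6.05, and 3.51 CPM across the WT label and at 2.97, 3.78, 3.203, and 4.58 CPM across the TRPA1-KO label. The difference was 0.61 ± 0.33 (SE, exact permutation p = 0.3). *Dtx3l* had 5.87, 12.1, 7.81, and 4.83 CPM under WT and 4.699, 6.01, 5.55, and 6.87 CPM under TRPA1-KO. The change was 0.30 ± 0.27 (SE, exact permutation p = 0.6). *Parp9* and *Dtx3l* were both highest on day 7 under WT, and their WT-labelled values of day 14 lay within or below the range of the TRPA1-KO-labelled BCAS libraries.

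The guanylate-binding proteins and the immunity-related GTPases are targets of interferon-γ as well as of type I interferons and act on vacuoles that hold pathogens. All 6 had higher means under WT, with a median log2 fold change of 0.71. They held 3 of the 16 members with a limma p under 0.05 and higher values under WT (2.40% of all genes tested). The values of *Gbp3* were 5.398, 18.9, 13.9, and 5.82 CPM for WT and 6.23, 5.23, 3.84, and 7.07 CPM for TRPA1-KO. *Gbp3* differed by 1.02 ± 0.36 between the BCAS groups (SE, exact permutation p = 0.2). For *Gbp7*, the WT-labelled libraries had 6.57, 15.9, 11.6, and 6.69 CPM and the TRPA1-KO-labelled ones 6.43, 5.12, 4.27, and 9.47 CPM. The difference was 0.76 ± 0.32 (SE, exact permutation p = 0.2). *Igtp* was at 2.82, 12.01, 8.696, and 2.52 CPM across the WT label and at 4.32, 2.45, 3.203, and 2.71 CPM across the TRPA1-KO label. The change was 1.02 ± 0.41 (SE, exact permutation p = 0.3). In these 3 genes, days 7 and 10 under WT were above all other libraries, and day 14 lay among the sham and TRPA1-KO values. *Irgm1* had 9.08, 24.5, 13.5, and 7.57 CPM under WT and 6.23, 10.02, 7.79, and 10.4 CPM under TRPA1-KO. *Irgm1* differed by 0.51 ± 0.33 between the BCAS groups (SE, exact permutation p = 0.5). The values of *Iigp1* were 2.19, 6.403, 3.78, and 1.54 CPM for WT and 0.575, 1.22, 1.92, and 2.81 CPM for TRPA1-KO. The difference was 0.62 ± 0.36 (SE, exact permutation p = 0.3). The sham libraries of *Iigp1* differed between labels, with 28 reads under WT and 6 under TRPA1-KO. *Gbp2* was at 8.72 and 9.07 CPM on days 7 and 10 under WT and at 2.74 to 4.30 CPM in the other 6 libraries. The Gbp genes resemble each other, and *Igtp* overlaps *Irgm2*, so reads may be shared among them.

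*Cxcl10* and *Cxcl9* encode chemokines that draw CXCR3-bearing T cells. For *Cxcl10*, the WT-labelled libraries had 0.391, 5.603, 1.26, and 0 CPM and the TRPA1-KO-labelled ones 0.0959, 0, 0.107, and 0 CPM. The change was 1.25 ± 0.53 (SE, exact permutation p = 0.4). These values stand for 5, 63, 10, and 0 reads under WT and for 1, 0, 1, and 0 reads under TRPA1-KO. On day 7 under WT the 95% Clopper-Pearson interval was 4.31 to 7.17 CPM, and every library of the other label was at or below 1 read. *Cxcl10* lies within *Art3* on the opposite strand. *Cxcl9* had 1 read on day 7 and 2 reads on day 10 under WT and 0 in the other 6 libraries, all at or under the floor of 3 reads, so it was not detectable at this depth.

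Of the other targets, *Lgals3bp*, which encodes a secreted glycoprotein that binds galectin-3, had the widest range in CPM. *Lgals3bp* was at 8.84, 63.1, 34.3, and 11.3 CPM across the WT label and at 11.9, 10.2, 8.97, and 15.5 CPM across the TRPA1-KO label. *Lgals3bp* differed by 1.30 ± 0.48 between the BCAS groups (SE, exact permutation p = 0.2). The day 7 value under WT was 6.09 times the sham mean. *Ifi27* had the highest level per kilobase of exon, a mean of 15.1 CPM per kb over the 8 libraries, followed by *Ifitm3* at 12.6 and *Ifit3* at 9.78. *Ifi27* had 16.7, 31.5, 31.00, and 16.7 CPM under WT and 21.4, 15.6, 19.6, and 24.7 CPM under TRPA1-KO. The difference was 0.35 ± 0.24 (SE, exact permutation p = 0.3). *Sp100* encodes a component of PML nuclear bodies. The values of *Sp100* were 3.76, 8.72, 8.696, and 3.51 CPM for WT and 2.49, 5.12, 3.52, and 3.43 CPM for TRPA1-KO. The change was 0.60 ± 0.30 (SE, exact permutation p = 0.3). Days 7 and 10 under WT were alike in *Ifi27* and in *Sp100*. The last 4, *Ifi44*, *Rtp4*, *Ifi35*, and *Xaf1*, had log2 fold changes from 0.31 to 0.88, none with a limma p under 0.05.

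Against sham, the BCAS libraries labelled WT were higher for all 38 genes, and those labelled TRPA1-KO for 21 of 38. Both comparisons used the same 2 sham libraries as 1 group, in a fit of all 8 libraries. Both sham libraries are from day 14, so the BCAS libraries of days 7 and 10 have no sham library of their day. For those days, the operation and the time since it cannot be told apart. The median log2 fold change of the BCAS groups from sham was 0.77 under WT and 0.01 under TRPA1-KO. Under WT, 17 of 38 genes (44.7%) had a limma p under 0.05 with higher values, against 2.44% of all genes tested, and 0 had one with lower values, against 3.01%. Under TRPA1-KO, 0 of 38 had one in either direction, against 1.07% of all genes with higher and 1.67% with lower values, and the count was also 0 with edgeR and with DESeq2 (1.24% and 0.580% of all genes with higher values). After adjustment 0 members passed in either comparison with limma or edgeR (both passed 0% of all genes under WT and 0.00552% under TRPA1-KO). DESeq2 called *Oasl2* and *Irf7* with the label WT (DESeq2 adjusted p = 0.00438 and 0.0491), against 0.182% of all genes with an adjusted p, and 0 members under TRPA1-KO, against 0.0221%. The lowest WT-labelled BCAS value was above both sham libraries for 15 of 38 genes, against 8.89% of all genes. For the label TRPA1-KO this held for 4 of 38 (*Ifit2*, *Irf9*, *Parp9*, and *Parp14*), against 8.41%. On day 14 alone, BCAS could be set against the sham library of the same day and label. There 20 of 38 genes were higher in BCAS under WT (median difference 0.01 on the log2 scale), against 47.4% of all genes. Under TRPA1-KO 34 of 38 were higher (0.32), against 49.8%. These differences have 1 library on each side and carry no test.

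Of the members not called between the BCAS groups, *Ifit3*, *Irf9*, *Bst2*, *Iigp1*, *Irgm1*, *Parp9*, *Sp100*, and *Eif2ak2* had a limma p under 0.05 between the WT-labelled BCAS libraries and sham. *Irf9* was higher than sham by 0.69 ± 0.20 on the log2 scale (SE, limma adjusted p = 0.814) under WT and by 0.38 ± 0.20 under TRPA1-KO. *Parp9* was higher by 1.05 ± 0.35 (limma adjusted p = 0.871) and 0.44 ± 0.35. *Oasl2* was higher by 1.78 ± 0.41 (limma adjusted p = 0.728) under WT and by 0.02 ± 0.41 under TRPA1-KO. *Irf7* was higher by 1.37 ± 0.34 (limma adjusted p = 0.787) and 0.16 ± 0.34. Under TRPA1-KO the limma adjusted p of every member was 1.0. The WT count of 17 was 10 without the WT-labelled library of day 7 (2.22% of all genes) and 31 without that of day 14 (6.54% of all genes). It was 9 without the WT-labelled sham library (1.5%) and also 9 without the TRPA1-KO-labelled one (0.960%). With the WT-labelled sham library alone as the reference it was 8 (0.960%). In the TRPA1-KO-labelled comparison, leaving out the library of day 14 left 13 of 38 genes above sham.

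The direct test of whether the change from the sham library of the same label differs between labels was the interaction of label and operation. It was positive for 37 of 38 genes, with a median of 0.63 on the log2 scale. Only *Oasl2* (2.15 ± 0.76) and *Stat2* (0.52 ± 0.20) had an unadjusted limma p under 0.05, against 0.811% of all genes tested in that direction, and 0 passed adjustment (limma adjusted p = 1.0). This contrast has 1 sham library per label, and edgeR and DESeq2 were not run on it.

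Over all 4 libraries of a label, sham included, the 38 genes again had higher means under WT, with a median log2 fold change of 0.60. By limma 11 of 38 had a p under 0.05 with higher values, against 2.11% of all genes tested, and 0 had lower values, against 1.83%. After adjustment 0 members passed with limma, edgeR, or DESeq2, against 0.0497% of all genes with limma and with edgeR and 0.0720% with DESeq2. In *Rsad2*, *Rtp4*, and *Irf1* every WT-labelled value was above every TRPA1-KO-labelled one, against 1.31% of all genes, and the exact permutation p was 0.0286, the smallest that 4 against 4 libraries allow. *Rtp4* and *Irf1* did not have a limma p under 0.05. The count of 11 was 26 without the WT-labelled sham library (3.25% of all genes) and 23 without the WT-labelled library of day 14 (3.88%). It was 7 without the TRPA1-KO-labelled library of day 7 (2.0%), 6 without that of day 10 (1.42%), and 6 without the TRPA1-KO-labelled sham library (1.78%). Without the WT-labelled library of day 7 it was 6 (1.84%) and without that of day 10 it was 4 (1.63%). The sham libraries themselves differed by a median of 0.14, with 27 of 38 genes higher under WT.

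Outside the 39 genes, the ligands were not detectable. None of 11 interferon genes (*Ifnb1*, 5 *Ifna* genes, *Ifnk*, *Ifne*, *Ifng*, *Ifnl2*, and *Ifnl3*) had more than 1 read in any library, and the only read was of *Ifne* on day 7 under WT. The floor of 3 reads allows up to 0.378 CPM in the shallowest library. The genes of the receptors for type I interferons and for interferon-γ were expressed. For *Ifnar1*, the WT-labelled libraries had 54.9, 67.2, 57.3, and 51.2 CPM and the TRPA1-KO-labelled ones 52.6, 54.5, 57.3, and 54.3 CPM. *Ifnar2* was at 16.6, 25.1, 21.05, and 16.02 CPM across the WT label and at 13.5, 17.5, 14.6, and 14.7 CPM across the TRPA1-KO label. *Ifngr1* had 14.9, 24.6, 17.3, and 12.1 CPM under WT and 15.1, 12.7, 9.72, and 17.2 CPM under TRPA1-KO. The values of *Ifngr2* were 31.5, 38.5, 36.8, and 32.9 CPM for WT and 29.8, 38.9, 30.2, and 32.4 CPM for TRPA1-KO. The first 3 were highest on day 7 under WT, and *Ifngr2* was about as high on day 7 under TRPA1-KO. Of these 4 receptor genes, only *Ifnar2* (0.37 ± 0.17) had an unadjusted limma p under 0.05 between the BCAS groups. Of the receptor genes for the *Ifnl* ligands, *Ifnlr1* had 0 to 6 reads per library, and *Il10rb* was at 5.27 to 10.3 CPM.

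Of 11 sensors and adaptors outside the list, 4 had a limma p under 0.05 with higher values under WT and 0 with lower values, against 2.40% and 1.80% of all genes tested. They were *Tlr7* and *Tlr9*, endosomal receptors for RNA and for DNA, *Cgas*, which senses DNA in the cytosol, and *Mavs*, the adaptor of RIG-I and MDA5. For *Tlr7*, the WT-labelled libraries had 4.54, 13.4, 6.81, and 5.38 CPM and the TRPA1-KO-labelled ones 2.302, 2.67, 2.56, and 5.098 CPM. Its log2 fold change was 1.06 ± 0.32 (SE). *Tlr9* and *Cgas* were at or below 3.74 CPM in every library, with log2 fold changes of 0.76 and 0.85. Of 8 inhibitors of the pathway, among them *Socs1* and *Socs3*, 0 had a p under 0.05 in this comparison with limma. Of 56 further targets, 53 were tested, and 17 had a limma p under 0.05 with higher values under WT (2.40% of all genes tested) and 1 with lower values (1.80%), with a median log2 fold change of 0.48. *Nlrc5*, the activator of MHC class I genes, had one of the largest changes (1.45 ± 0.39). *Nlrc5* was at 1.41, 6.94, 5.42, and 1.54 CPM across the WT label and at 1.82, 0.891, 0.427, and 1.35 CPM across the TRPA1-KO label. *Ifi204*, of the DNA-binding p200 family, was higher by 1.46 ± 0.53. *Ifi204* had 0.156, 8.72, 1.89, and 0.658 CPM under WT and 0.671, 0, 0.214, and 0.832 CPM under TRPA1-KO. *Tap1*, the peptide transporter of antigen presentation, was higher by 0.97 ± 0.40. The values of *Tap1* were 1.33, 9.07, 5.29, and 2.19 CPM for WT and 3.07, 1.11, 1.92, and 3.33 CPM for TRPA1-KO. The gene with lower values was *Gbp11* (-0.74 ± 0.21), at 0.33 to 2.18 CPM over the 8 libraries. The others with a p under 0.05 were *Ifi27l2a*, *Ifi203*, *Ifi209*, *Oas1g*, *Gbp6*, *Gbp10*, *Ifitm1*, *Slfn2*, *Slfn5*, *Slfn8*, *Trim25*, *Trim34a*, *Ddx60*, and *Phf11d*, with log2 fold changes from 0.52 to 1.16. None of these genes outside the list passed adjustment (limma adjusted p from 0.928 to 0.999).

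The summed markers of microglia and of astrocytes moved with the members from library to library, and those of oligodendrocytes did not. The summed CPM of the 39 genes was 2.84 times the sham mean on day 7 under WT, 1.79 times on day 10, and 1.09 times on day 14, and 1.01, 0.98, and 1.26 times under TRPA1-KO. For 7 microglia markers the corresponding ratios were 2.53, 1.61, and 0.98 under WT and 0.93, 0.98, and 1.30 under TRPA1-KO. All 7 were highest on day 7 under WT, as *Cx3cr1* was at 106 CPM there and at 37.95 to 65.3 CPM elsewhere. For 7 astrocyte markers the ratios were 2.16, 1.63, and 0.94 under WT and 0.94, 0.92, and 1.21 under TRPA1-KO, and 6 of the 7 were highest on day 7 under WT. *Gfap* was at 1415 and 1060 CPM on days 7 and 10 under WT and at 157 to 427 CPM elsewhere. *Vim* was at 324 and 109 CPM on those days and at 29.95 to 53.6 CPM elsewhere. The other astrocyte markers rose less. *Slc1a3* and *Aldoc* were at 619 and 807 CPM on day 7 under WT and at 501 and 593 CPM on day 10. In sham *Slc1a3* was at 487 and 492 CPM and *Aldoc* at 600 and 618 CPM. Between the BCAS groups, 2 of 7 microglia markers, 1 of 7 astrocyte markers, 2 of 7 endothelial markers, and 1 of 6 oligodendrocyte markers had a limma p under 0.05 with higher values under WT, against 2.40% of all genes tested. Their part in the result for the interferon-stimulated genes was not tested.

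The lists for other cell types differed from one another. Those of monocytes and neutrophils and of plasmacytoid dendritic cells were highest on days 7 and 10 under WT. Summed neuronal markers were 0.80 times the sham mean on day 7 under WT and 0.91 to 1.05 times elsewhere. *Ppp1r1b* was lower in BCAS than in sham by 0.75 ± 0.19 under WT and 0.53 ± 0.19 under TRPA1-KO (log2, SE). *Drd1* was lower by 0.73 ± 0.19 and 0.47 ± 0.19, and *Slc17a7*, *Snap25*, and *Rbfox3* changed by little. Summed ependymal and choroid plexus markers were 1.55 times the sham mean on day 7 under WT and 0.75 to 1.21 times elsewhere. Summed endothelial markers were 0.93 to 1.2 times the sham mean in all 8 libraries, and summed oligodendrocyte markers 0.78 to 1.05 times. Within that sum *Mog*, a myelin gene, differed from the rest, with 154, 148, and 150.2 CPM on days 7, 10, and 14 of BCAS under WT, 98.4, 115, and 104 CPM under TRPA1-KO, and 168 and 185 CPM in sham. It was higher under WT between the BCAS groups by 0.51 ± 0.08 (SE, limma adjusted p = 0.163). Under TRPA1-KO it fell by 0.73 ± 0.08 from sham (SE, limma adjusted p = 0.0461), and it was the only gene that passed adjustment with limma in that comparison. Of the genes that define T and NK cells, *Cd3e*, *Cd3g*, *Cd3d*, *Cd8a*, *Ncr1*, *Klrb1c*, and *Nkg7* were each at or below 0.76 CPM in every library. *Cd4* was at 8.68 to 23.0 CPM. Of these 8 genes, 2 had 0 reads on day 7 and 2 on day 10 under WT. In the other 6 libraries 6 or 7 of them had 0 reads. Besides *Cd4*, the largest counts were of *Cd8a*, with 4 and 6 reads on days 7 and 10 under WT and at most 1 read elsewhere. The B cell markers were at or below 0.50 CPM. The summed markers of monocytes and neutrophils were 6.58 CPM on day 7 under WT and 4.66 CPM on day 10. They were 0 to 2.43 CPM in the other 6 libraries, with *Ly6g* at 0 in all. As ratios to the sham mean these sums were 3.68, 2.61, and 0 under WT and 0.50, 0.12, and 0.70 under TRPA1-KO on days 7, 10, and 14. They rest on few reads, 74 on day 7 and 37 on day 10 under WT. *Siglech*, listed for plasmacytoid dendritic cells and also expressed by microglia, was at 12.1 to 23.4 CPM, while *Ly6d* and *Klk1* were at or below 1.16 CPM. The part of these cells in the result was not tested.

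**Figure D5:**
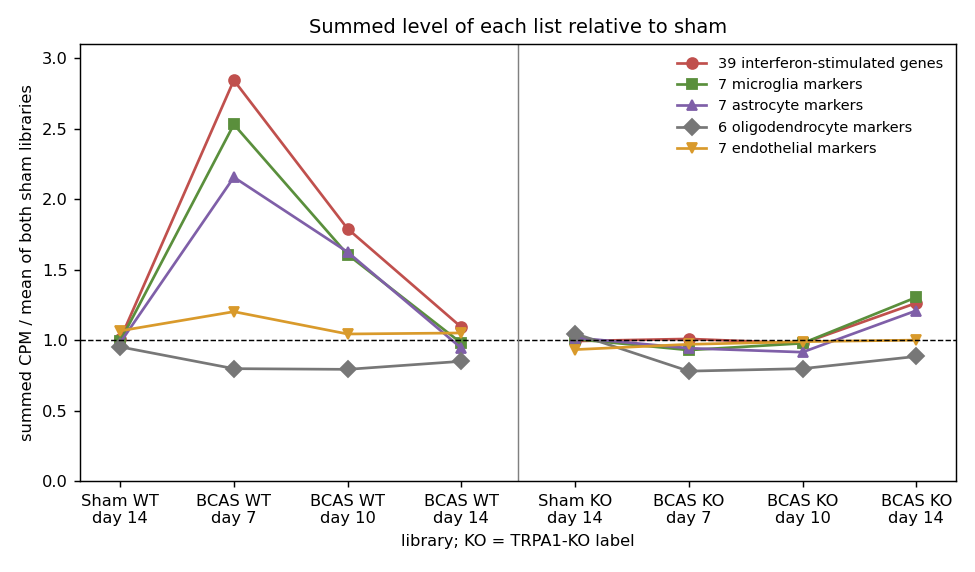
Summed CPM of 39 interferon-stimulated genes and of 4 lists of cell type markers, divided by the mean of both sham libraries (vertical axis, dashed line at 1), in 8 libraries. The interferon-stimulated genes, microglia markers, and astrocyte markers reach 2.84, 2.53, and 2.16 on day 7 under the label WT, and oligodendrocyte and endothelial markers stay between 0.78 and 1.2.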

How the data were processed

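The authors selected polyadenylated RNA, mapped reads to GRCm38 (mm10) with HISAT, counted them per gene with subread's featureCounts, and normalized with edgeR. The annotation and the strand setting are not given in the sources used here. The deposited signal is reads per gene scaled for a library's effective size (CPM), not logged. All values (100%) of a library came out as whole reads, within 0.01 reads, when divided by its smallest nonzero value, which gave 7896071 to 12952093 reads per library.

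Libraries were grouped by their labels for genotype, operation, and day. By the methods' general statement each sample is from a single mouse, and p-values measure the spread between libraries of different days. The test was limma version 3.58.1 (R version 4.3.3, trended prior, two-sided), applied to log2(CPM + 1). The added 1 makes the fold changes of low genes too small. Genes whose mean reached 0.1 CPM were tested, with Benjamini-Hochberg adjustment over all of them. The BCAS groups were compared over 6 libraries. Comparisons with sham used 1 fit of 8 libraries with both sham libraries as 1 group. Single members were also compared by exact permutation of libraries, two-sided.

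As alternatives, the pseudocount was 0.1, the filter was dropped or set at 1 CPM, library medians were equalized, and limma's robust option, edgeR version 4.0.16 and DESeq2 version 1.42.0 on the recovered reads, day as a block, other libraries in the fit, and omission of each library were tried. The fits were tested on simulated data. The members and lists were chosen with earlier results of these data known. A member was described library by library if it had a limma p under 0.05 in any of the 4 comparisons, was a transcription factor, sensor, or chemokine, was 1 of the 2 members of its role with the largest mean, or was among the 10 largest changes between the BCAS groups. Of the genes outside the list, the receptors, the ligands, and those with such a p between the BCAS groups were named, except a signalling gene that is not reported here. *Rtp4*, *Gbp2*, and *Mx1* were named after their values were seen. Intervals and the floor of 3 reads cover counting error only. Gene lengths and positions come from GENCODE M21, and promoters from RefSeq.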

Additional observations from a re-analysis of the deposited data

Results flagged for a closer look

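In 3 of 78 sets of 4 libraries of a label (38 genes and their median, for each label), 1 library stood apart from the other 3 by Dixon's test at its 95% critical value, where chance gives about 1 in 20. *Rtp4* was at 3.32 on the log2(CPM + 1) scale on day 7 under the label WT, with a gap of 0.966 of the range. *Ifih1* was at 3.84 in the same library, with a gap of 0.839 of the range. *Eif2ak2* was at 3.39 in the TRPA1-KO-labelled library of day 14, with a gap of 0.884 of the range.

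The interaction of label and operation was flagged for *Oasl2* (2.15 on the log2 scale) and for *Stat2* (0.52). In both genes sham was lower under WT than under TRPA1-KO, which adds to the interaction. The sham values were 1.96 against 2.88 CPM for *Oasl2* and 34.1 against 40.3 CPM for *Stat2*. Neither passed adjustment over all genes (limma adjusted p = 1.0 for both), and each label has 1 sham library.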

How the results depend on the processing

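All 38 genes stayed higher under WT in the comparison of the BCAS groups in every alternative except without the WT-labelled library of day 7 (35 of 38). Without that library the median change fell from 0.76 to 0.37. It fell from 0.77 to 0.39 against sham under WT and from 0.60 to 0.26 between all libraries of the labels. The median changes stayed within 1 SD of the libraries' medians in all comparisons. Under WT that SD holds the time course, so this limit is wide and says little about stability. The count of members with a p under 0.05 also varied. The share of all genes with such a p and higher values is in parentheses. Between the BCAS groups it was 16 (2.40%), 8 without a filter on low values (2.25%), 9 with limma's robust option (2.16%), 26 with edgeR (3.53%), 28 with DESeq2 (2.45%), and 7 to 33 with a library left out (1.09% to 6.75%). Against sham under WT it was 17 (2.44%), 11 with the robust option (2.19%), 26 with edgeR (3.92%), 27 with DESeq2 (2.59%), 8 with the same-label sham library alone (0.960%), and 9 to 31 with a library left out (0.960% to 6.54%). Between all libraries of the labels it was 11 (2.11%), 6 with the robust option (1.97%), 22 with edgeR (2.99%), 25 with DESeq2 (2.18%), and 4 to 26 with a library left out (1.42% to 3.88%). Under TRPA1-KO against sham it was 0 in every alternative. In the main fits 0 members passed adjustment. With DESeq2, 1 passed between the BCAS groups (0.0958% of all genes with an adjusted p) and 2 against sham under WT (0.182%). Without the WT-labelled library of day 14, 4 members passed in each of these comparisons with limma (0.160% and 0.248% of all genes). Without any other BCAS library 0 passed. The cause of these differences was not tested, and all alternatives reuse the same 8 libraries. For the counts in the next sentence, the share of all genes was not computed. A p under 0.05 was kept in every alternative that tested them by 7 of the 16 members (*Ddx58*, *Ifit1*, *Irf7*, *Oasl2*, *Parp14*, *Rsad2*, and *Usp18*) and by 4 of the 17 (*Ifit1*, *Irf7*, *Oasl2*, and *Parp14*).

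The same days did not pair the libraries of the 2 labels, since the correlations of their deviations were -0.10, 0.01, and -0.26 on days 7, 10, and 14. With the day as a replicate block 16 members had a p under 0.05 with higher values between the BCAS groups, against 2.1% of all genes. Of these, 14 were among the 16 without the block. With operation and day as a block 13 members had such a p between all libraries, against 1.9% of all genes. Depth limited *Cxcl9*, *Cxcl10*, and *Zbp1*, and also *Mx1* and *Ifi44*, which had 2 or 3 reads in some BCAS libraries. The p-values over 3 libraries that differ in day hold the time course within their error.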
